A study of Canis lupus familiaris with 25 samples.

Results

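The genes described here are interferon-stimulated genes, chosen as a list of 49 gene names, and 46 of the 49 were found by row name among the 24532 genes of the deposited count table. IFIT1, IRF7 and SAMD9 were not found under these names and were not analysed here. Their level was compared between hepatoid gland adenoma (HGA), primary apocrine gland anal sac adenocarcinoma (AGASAC) and AGASAC metastases in dogs. HGA is a benign tumor of the modified sebaceous glands around the anus, and AGASAC is a malignant tumor of the apocrine glands of the anal sac.

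The 25 samples were archival formalin-fixed, paraffin-embedded (FFPE) tumor tissue, sequenced with QuantSeq 3′, which yields 1 fragment near the 3′ end of each transcript. The HGA came from 10 dogs aged 8 to 14 years, labeled as 4 male, 1 neutered male, 2 female and 3 neutered female. The primary AGASAC came from 11 dogs aged 8 to 12.5 years, labeled as 6 neutered male, 2 female and 3 neutered female, so that males without a neutering label were in the HGA group only. The 4 metastases were sublumbar lymph node metastases of the dogs with AGASAC primary tumors 1 to 4, aged 8 to 10 years. The labels name no engineered allele and no treatment in any group. Each sample was bulk tissue, which also holds immune and stromal cells.

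Interferons are secreted proteins that cells release when they sense foreign or misplaced nucleic acids. Type I interferons signal through IFNAR1 and IFNAR2 to the kinases JAK1 and TYK2, which activate a complex that holds STAT2 and IRF9 at response elements of the interferon-stimulated genes, whereas interferon gamma acts through IFNGR1 and IFNGR2 and induces IRF1. The products of the induced genes trap viral RNA, block translation, modify proteins with the ubiquitin-like protein ISG15 and raise the cell's own sensors and transcription factors, and in tumors these genes are expressed by tumor cells as well as by immune cells.

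Each library held 1562347 to 6389555 counted reads in HGA, from 2581453 to 4218340 in AGASAC primary tumors and from 2857541 to 3289546 in the metastases. Where no read was counted, a level of 3 counts remains possible. That is 1.84 CPM (counts scaled to a common library size) in HGA 4, the library with the fewest counts, and 0.543 CPM in HGA 1, the library with the most. The tumor labels were checked on keratins and related genes. The summed level of 4 glandular keratins was 1.29 to 148 CPM in HGA, 1782 to 4156 CPM in primary AGASAC and 1992 to 4530 CPM in the metastases, and that of 4 basal and squamous markers was 4558 to 15230 CPM in HGA and at most 30.5 CPM in any AGASAC sample. Levels are given below as CPM with TMM scaling over all 25 samples. They are not divided by length, since the assay counts transcript ends.

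In most of the list, HGA had the lower level of interferon-stimulated RNA. The mean of log2(CPM + 1) over the 46 genes was 3.15 ± 0.44 (SD, n = 10) in HGA, 4.38 ± 0.453 (SD, n = 11) in primary AGASAC and 4.53 ± 0.53 (SD, n = 4) in the metastases. HGA ranged from 2.34 in HGA 4 to 3.79 in HGA 2, primary AGASAC from 3.59 in AGASAC primary 3 to 5.03 in AGASAC primary 6, and the metastases from 3.85 to 5.12. HGA 2 thus lay above AGASAC primary 3 and AGASAC primary 11 (3.67), and the other 9 HGA lay below every AGASAC sample. The group median was lower in HGA than in primary AGASAC in 39 of the 46 genes. In bulk tissue, fewer cells of a type and less RNA per cell cannot be told apart.

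**Figure D1:**
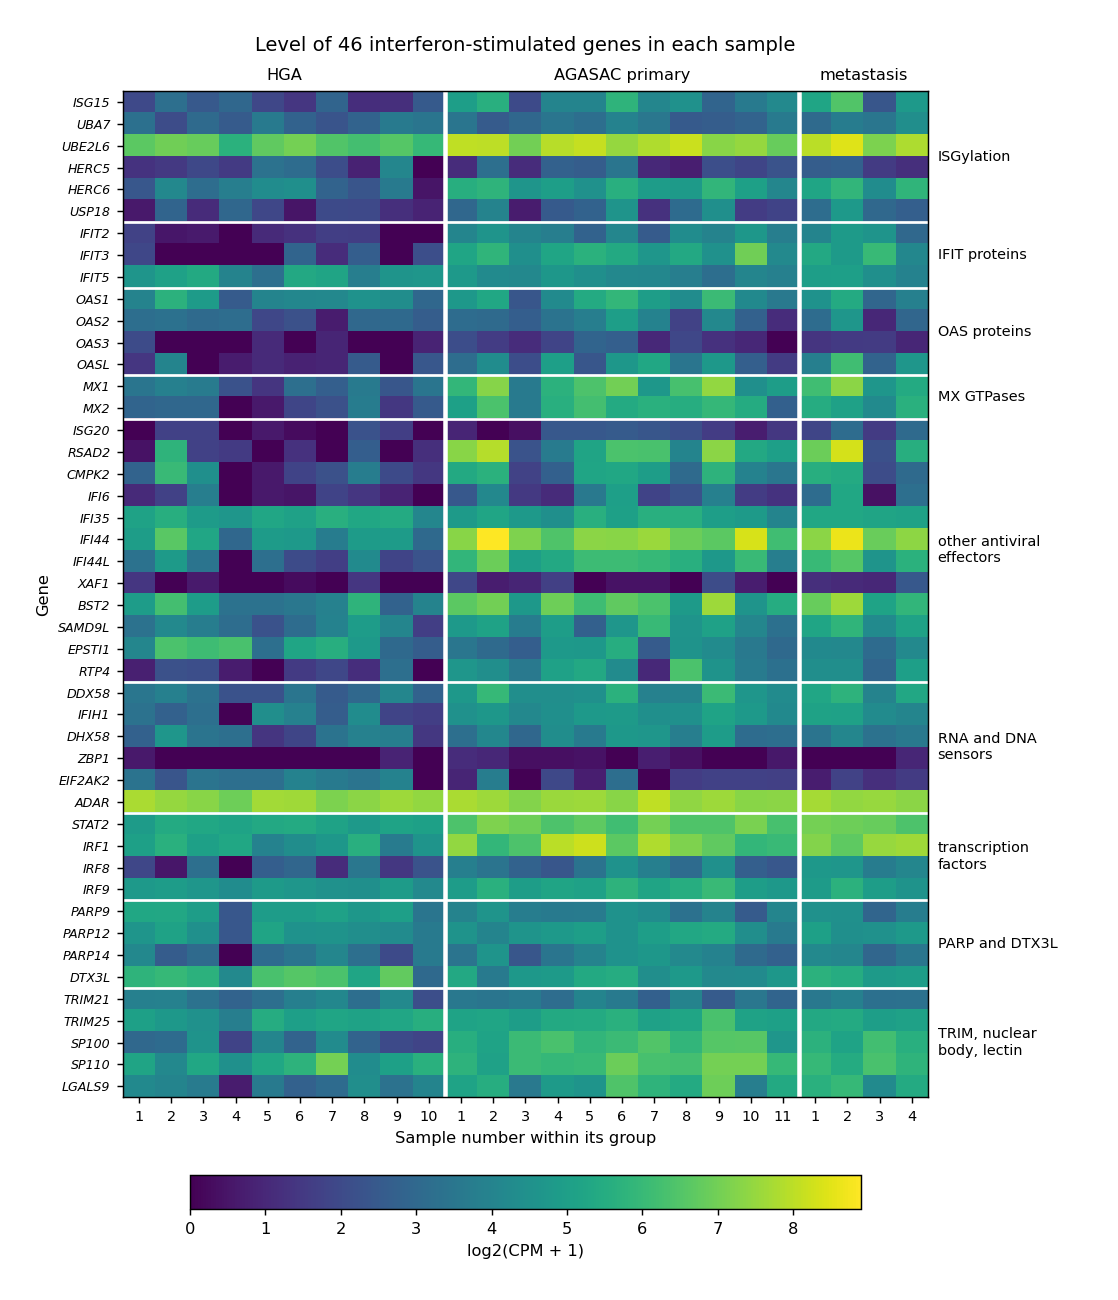
Level of the 46 genes (rows, grouped by role) in each of the 25 samples (columns, by group and sample number) as log2(CPM + 1), with color from 0 in dark blue to the highest level in yellow. IFIT2 and IFIT3, with medians of 0.825 and 0.607 CPM in HGA, are dark in HGA and brighter in every AGASAC sample, whereas ADAR is bright in all samples.

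The test of HGA versus primary AGASAC was the quasi-likelihood test of edgeR, with p adjusted by Benjamini-Yekutieli over all 12070 genes that passed the filter on low counts. A gene is called when its adjusted p is at most 0.05 and its log2FC (HGA versus AGASAC) is at most −1 or at least 1. Of the 46 genes, 39 were tested, and 17 of these (43.6%) were lower in HGA, beside 12.5% of all genes tested. None of the 39 was called higher in HGA, beside 12.6% of all genes tested. At an unadjusted p under 0.05, 23 were lower and 5 were higher, which is 59% and 12.8% of the 39, beside 27% and 26.7% of all genes. With DESeq2, which tested all 46, 19 were lower and 0 higher. The median log2FC of the 39 genes was −1.17, beside −0.0315 over all genes tested, and 32 of the 39 were below 0. With library size alone in place of TMM the median of all genes shifted to −0.331, the share of the calls over all genes that were higher in HGA went from 50.2% to 32.8%, and 20 genes of the list were lower and 0 higher. In 5 of the 39 (12.8%), IFIT2, IFIT3, SP100, IRF1 and STAT2, every HGA lay below every primary AGASAC, beside 4.76% of all genes tested. The reverse held for none of the 39, beside 4.37% of all genes tested.

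**Figure D2:**
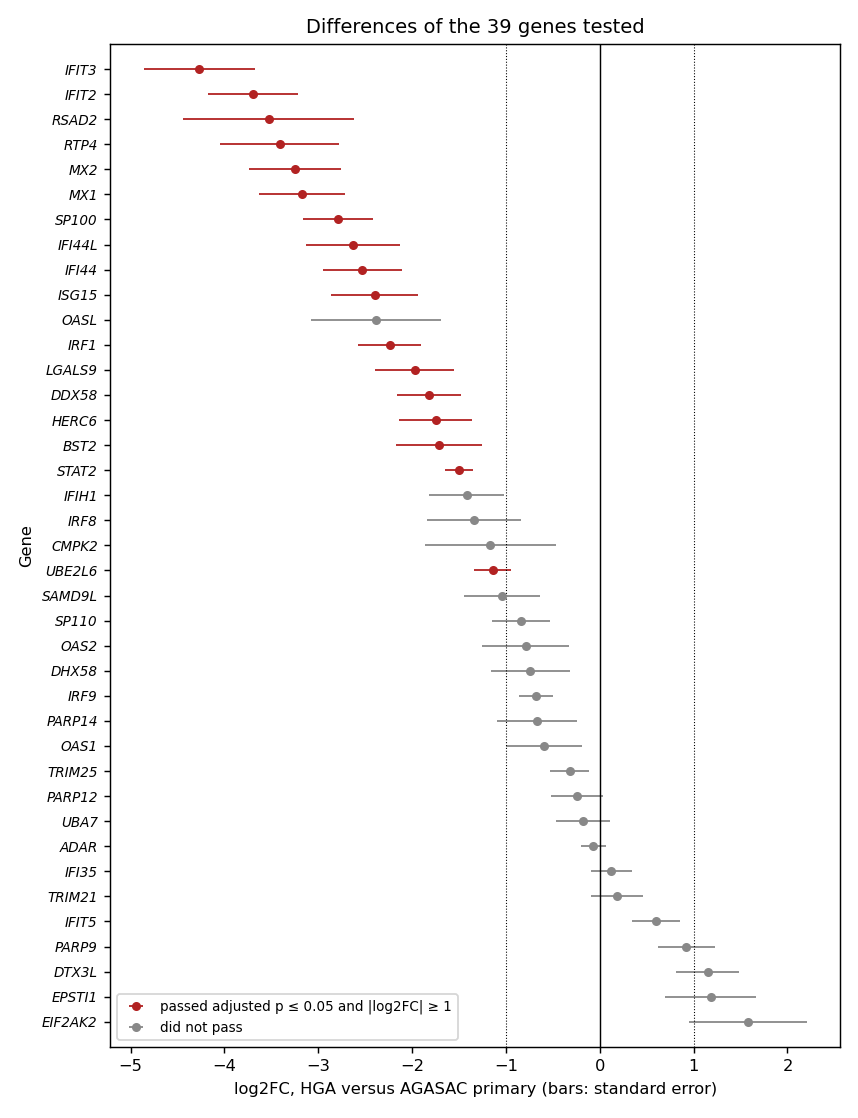
log2FC with standard error of each of the 39 genes tested, HGA versus primary AGASAC (x axis, log2 scale), sorted by size, with called genes in red. The 17 called genes all lie below −1, from −1.14 for UBE2L6 to −4.27 for IFIT3, and the genes above 0, up to 1.58 for EIF2AK2, are gray.

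The IFIT proteins bind viral RNA and block its translation, and 2 of the 3 tested were called. IFIT3 ranged from 0 over a median of 0.607 to 6.33 CPM in HGA and from 17.2 over 36.7 to 123 CPM in primary AGASAC, with no read in 5 of the 10 HGA. Its log2FC was −4.27 ± 0.59 (SE, adjusted p = 2.61e-05), the lowest of the list. IFIT2 ranged from 0 over 0.825 to 2.35 CPM in HGA and from 4.89 over 15.1 to 25.1 CPM in primary AGASAC, with a log2FC of −3.70 ± 0.48 (SE, adjusted p = 1.03e-05). Neither gene overlapped between the groups. IFIT5, an RNA-binding member of the same family, had medians of 24.2 CPM in HGA and 16.9 CPM in primary AGASAC and a log2FC of 0.60 ± 0.25 (SE, adjusted p = 0.538), so it was not called.

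Both MX proteins, dynamin-like GTPases that trap viral nucleoproteins, were called. MX1 ranged from 1.62 over 9.23 to 13.6 CPM in HGA and from 11.9 over 59.1 to 173 CPM in primary AGASAC, with a log2FC of −3.17 ± 0.46 (SE, adjusted p = 4.61e-05). MX2 ranged from 0 over 4.19 to 12.3 CPM in HGA and from 5.59 over 45.6 to 82 CPM in primary AGASAC, with a log2FC of −3.25 ± 0.49 (SE, adjusted p = 8.52e-05). The groups overlapped at their edges in both genes, where the lowest primary AGASAC were AGASAC primary 3 for MX1 and AGASAC primary 11 for MX2.

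ISG15 is a ubiquitin-like modifier that UBA7 activates, UBE2L6 conjugates, HERC5 and HERC6 ligate and USP18 removes, and 3 of the 4 genes of this group that were tested were called. ISG15 itself ranged from 1.23 over 3.73 to 8.59 CPM in HGA and from 2.96 over 16.1 to 54.1 CPM in primary AGASAC, with a log2FC of −2.40 ± 0.46 (SE, adjusted p = 0.0016). The groups overlapped, since AGASAC primary 3 (2.96 CPM) lay within the range of HGA. UBE2L6, the most abundant of the group by CPM, had medians of 96 CPM in HGA and 229 CPM in primary AGASAC and a log2FC of −1.14 ± 0.20 (SE, adjusted p = 0.00044). HERC6 had medians of 9.72 and 30.6 CPM and a log2FC of −1.75 ± 0.39 (SE, adjusted p = 0.00649). The activating enzyme UBA7 did not pass, with medians of 6.79 and 8.33 CPM and a log2FC of −0.18 ± 0.29 (SE, adjusted p = 1).

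OAS1, OAS2 and OAS3 make the oligoadenylates that activate RNase L, while OASL acts through RIG-I, and none of the 3 tested was called. OAS1 ranged from 4.92 over 16.8 to 51.5 CPM in HGA and from 4.15 over 25.6 to 66.5 CPM in primary AGASAC, and its log2FC was −0.59 ± 0.41 (SE, adjusted p = 1). The ranges of OAS1 lay over each other almost in full, with the lowest value of all in AGASAC primary 3. OAS2 had medians of 7.10 and 7.84 CPM and a log2FC of −0.79 ± 0.46. OASL had medians of 0.995 and 10.1 CPM and a log2FC of −2.38 ± 0.69 (SE, adjusted p = 0.068). It met the limit on the fold but fell just short of that on p.

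**Figure D3:**
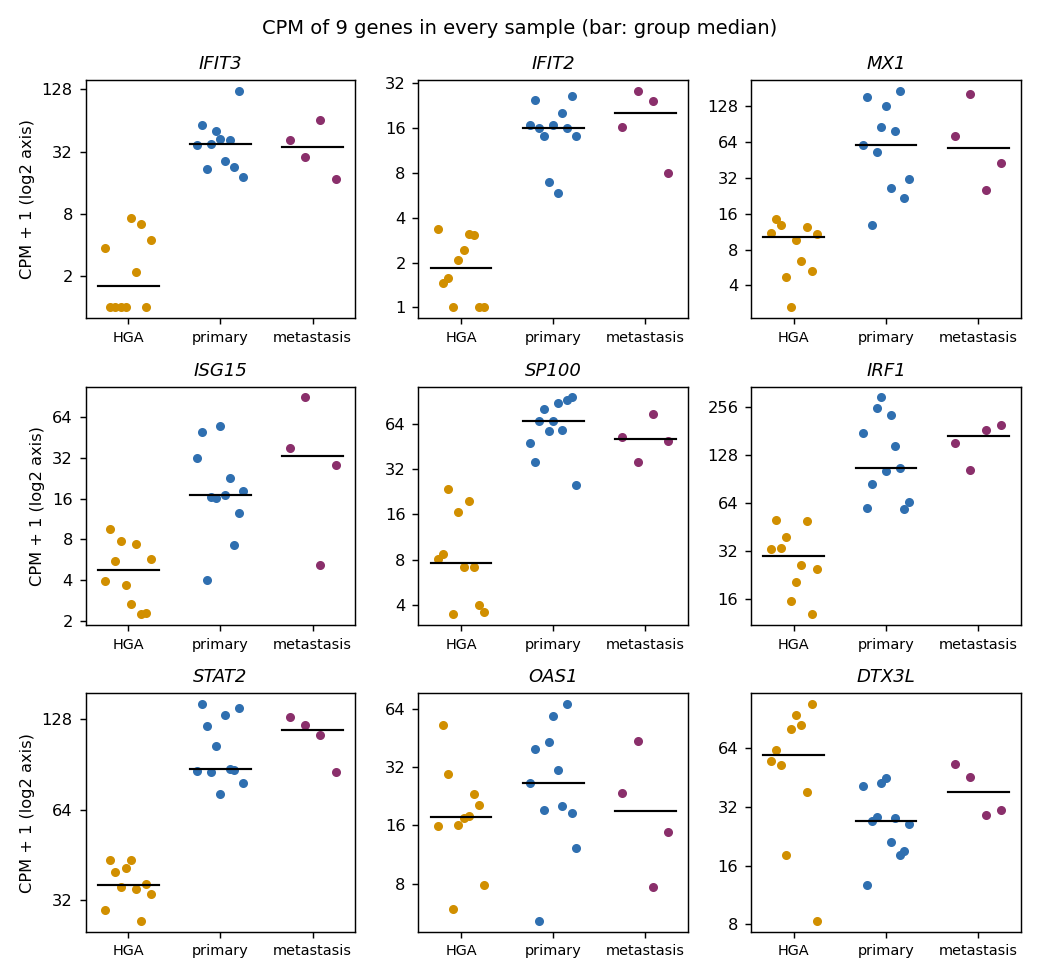
CPM + 1 on a log2 axis for 9 genes in each sample of HGA, primary AGASAC and metastases, with points for samples and a bar for the group median. IFIT3, IFIT2, SP100, IRF1 and STAT2 separate HGA from all 15 AGASAC samples, OAS1 overlaps throughout, and DTX3L is higher in HGA at the median (58 against 26.1 CPM in primary AGASAC) but was not called.

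Among 12 other antiviral effectors, 9 were tested and 5 were called. RSAD2 encodes viperin, which turns CTP into a nucleotide that stops viral RNA synthesis, and CMPK2 encodes a nucleotide kinase. RSAD2 ranged from 0 over 1.36 to 54.7 CPM in HGA and from 3.85 over 40.5 to 239 CPM in primary AGASAC, with a log2FC of −3.53 ± 0.92 (SE, adjusted p = 0.028). HGA 2 alone gave the 54.7 CPM, and the next HGA was at 5.34 CPM. The call of RSAD2 was lost in 7 of 21 fits with 1 tumor removed, and that of BST2 in 14. CMPK2 was also highest among the HGA in HGA 2, at 65.1 CPM, and its log2FC was −1.17 ± 0.70 (SE, adjusted p = 1).

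IFI44 and its paralog IFI44L, cytosolic proteins linked to the antiviral response, were both lower in HGA. IFI44 ranged from 6.76 over 28.5 to 98.5 CPM in HGA and from 71.4 over 157 to 477 CPM in primary AGASAC, with a log2FC of −2.53 ± 0.42 (SE, adjusted p = 0.00028). IFI44L ranged from 0 over 6.25 to 28 CPM in HGA and from 13.1 over 56.7 to 118 CPM in primary AGASAC, with a log2FC of −2.63 ± 0.50 (SE, adjusted p = 0.00132). HGA 2 was the highest HGA in both, as in RSAD2 and CMPK2.

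RTP4, a receptor transporter protein, ranged from 0 over 1.53 to 8.49 CPM in HGA and from 1.05 over 20.3 to 81.4 CPM in primary AGASAC, with a log2FC of −3.41 ± 0.63 (SE, adjusted p = 0.00105). BST2, or tetherin, which holds budding virus at the cell surface, had medians of 14.3 and 82.5 CPM and a log2FC of −1.71 ± 0.46 (SE, adjusted p = 0.0369). SAMD9L, a restriction factor of poxviruses, had a log2FC of −1.04 ± 0.40 and did not pass (adjusted p = 0.373). IFI35 had medians of 36.1 and 30.7 CPM and a log2FC of 0.12 ± 0.22 (SE, adjusted p = 1). EPSTI1 had the higher median in HGA, 31.5 against 11.1 CPM, and its log2FC of 1.18 ± 0.49 did not pass (adjusted p = 0.504).

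Of the sensors of foreign or altered nucleic acids, 1 of 5 tested was called. DDX58, which encodes the RNA sensor RIG-I, had medians of 8.06 CPM in HGA and 21.2 CPM in primary AGASAC and a log2FC of −1.82 ± 0.34 (SE, adjusted p = 0.00129). IFIH1, which encodes the long-RNA sensor MDA5, had medians of 7.22 and 21.7 CPM and a log2FC of −1.42 ± 0.40, with an adjusted p of 0.058 just over the limit. DHX58, which encodes LGP2, a regulator of these sensors, had a log2FC of −0.74 ± 0.42 (SE, adjusted p = 1). ADAR, which edits double-stranded RNA and has a constitutive as well as an induced transcript, ranged from 121 to 215 CPM in HGA and from 150 to 263 CPM in primary AGASAC, with a log2FC of −0.07 ± 0.13. EIF2AK2, which encodes the kinase PKR that halts translation, had medians of 9.64 and 2.19 CPM and a log2FC of 1.58 ± 0.63 (SE, adjusted p = 0.423), the highest log2FC of the 39 genes tested.

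STAT2 and IRF1 were called among the 4 transcription factors. STAT2, the subunit of the type I interferon complex that carries its activation domain, ranged from 26.3 over 34.8 to 42.5 CPM in HGA and from 71.3 over 86.4 to 143 CPM in primary AGASAC. Its log2FC was −1.50 ± 0.15 (SE) and its adjusted p of 3.29e-07 was the lowest of the list. The SD of log2(CPM + 1) of STAT2 was 0.223 over the HGA and 0.356 over the primary AGASAC. IRF1, the first factor induced by interferon gamma, ranged from 11.9 over 28.7 to 49.3 CPM in HGA and from 57.8 over 105 to 295 CPM in primary AGASAC, with a log2FC of −2.24 ± 0.34 (SE, adjusted p = 8.18e-05). In both genes the highest HGA lay below the lowest primary AGASAC. IRF9, the DNA-binding partner of STAT2, had medians of 24.4 and 35.3 CPM and a log2FC of −0.68 ± 0.18, which passed the limit on p (adjusted p = 0.0316) but not that on the fold. IRF8, a factor of myeloid and B cells, had medians of 3.29 and 9.37 CPM and a log2FC of −1.34 ± 0.50 (SE, adjusted p = 0.307).

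None of the 4 genes of the PARP and DTX3L group, which modify proteins with ADP-ribose or ubiquitin, was called. DTX3L, a ubiquitin ligase, ranged from 7.31 over 58 to 107 CPM in HGA and from 11.8 over 26.1 to 44.1 CPM in primary AGASAC, with a log2FC of 1.15 ± 0.34 (SE, adjusted p = 0.0682). Its partner PARP9 had medians of 29.4 and 14.6 CPM and a log2FC of 0.92 ± 0.30 (SE, adjusted p = 0.145). In PARP9, 8 of the 10 HGA lay above every primary AGASAC, and in DTX3L 7 of the 10. HGA 4 and HGA 10 were the low HGA: without HGA 4 both genes were called higher in HGA, and without HGA 10 DTX3L was. PARP12 and PARP14 had log2FC of −0.24 ± 0.28 and −0.67 ± 0.42 and were not called.

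SP100 and LGALS9 were called in a mixed group of TRIM ligases, nuclear body proteins and a lectin. SP100, a defining protein of nuclear bodies, ranged from 2.46 over 6.61 to 22.8 CPM in HGA and from 24.3 over 66.2 to 95.6 CPM in primary AGASAC, without overlap, with a log2FC of −2.79 ± 0.37 (SE, adjusted p = 1.45e-05). LGALS9, which encodes galectin-9, ranged from 0.615 over 11.7 to 20.1 CPM in HGA and from 11 over 41.5 to 121 CPM in primary AGASAC, with a log2FC of −1.97 ± 0.42 (SE, adjusted p = 0.00485). SP110, also a nuclear body protein, had a log2FC of −0.84 ± 0.31 (SE, adjusted p = 0.298). The ubiquitin ligases TRIM21, an antibody receptor of the cytosol, and TRIM25, which acts on RIG-I, had log2FC of 0.19 ± 0.28 and −0.32 ± 0.21 and were not called.

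The other 7 genes found, HERC5, USP18, OAS3, ISG20, IFI6, XAF1 and ZBP1, had too few counts for the filter in this comparison. OAS3 had no read in 6 of the 10 HGA and in 1 of the 11 primary AGASAC, XAF1 in 6 and 3, and the nucleic acid sensor ZBP1 in 8 and 3. USP18, the protease that removes ISG15, had medians of 1.99 CPM in HGA and 5.90 CPM in primary AGASAC, and IFI6, a mitochondrial protein, 0.967 and 3.68 CPM. The exonuclease ISG20 had medians of 0.372 and 2.01 CPM, and the ligase HERC5 2.35 and 3.44 CPM. With no filter on low counts, 17 genes of the list were called, as with it.

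Several of the genes lie next to each other in the RefSeq annotation of the dog assembly UU_Cfam_GSD_1.0, where 18 of the 47 genes matched by symbol form 8 clusters with at most 1 other protein-coding gene between neighbors. Both genes were called lower in HGA in the clusters of MX1 with MX2, of IFIT2 with IFIT3 and of IFI44 with IFI44L. In the cluster of RSAD2 with CMPK2 and that of SP100 with SP110, 1 gene of each was called. HERC6 was called and its neighbor HERC5 was not tested. In the cluster of OAS1, OAS3 and OAS2 and in that of PARP9, DTX3L and PARP14, none was. Multi-mapped reads were split evenly over their locations, so paralogs such as MX1 and MX2 may share a part of their reads.

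Genes around the list were counted by role. Beside each count of calls in HGA versus primary AGASAC stand the shares over all genes tested, 12.5% lower and 12.6% higher in HGA. Of 6 interferon genes looked up, only IFNB1 and IFNG were found in the table, and neither passed the filter in HGA versus primary AGASAC. IFNG had no read in any of the 10 HGA, up to 5.56 CPM in primary AGASAC with no read in 4 of 11, and 0.796 to 9.41 CPM in the metastases, where its log2FC against the matched primary tumors was 0.59 ± 1.03 (SE, adjusted p = 1). IFNB1 had reads in 1 of the 25 samples, AGASAC primary 6, at 2.41 CPM.

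Among 5 interferon receptor genes tested, 1 was lower and 1 was higher in HGA. IFNGR1, the ligand-binding chain of the interferon gamma receptor, had medians of 7.88 and 27.1 CPM and a log2FC of −2.13 ± 0.46 (SE, adjusted p = 0.00524). IL10RB, which the interferon lambda and interleukin 10 receptors share, had medians of 313 and 19.6 CPM and a log2FC of 4.03 ± 0.34 (SE, adjusted p = 1.6e-08), with every HGA above every primary AGASAC. The type I receptor genes IFNAR1 and IFNAR2 had log2FC of −0.38 ± 0.30 and 0.37 ± 0.32 and were not called.

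Of 8 genes of JAK-STAT signaling and its inhibitors, 2 were lower and 2 were higher in HGA. The STAT inhibitor PIAS1 had a log2FC of −3.01 ± 0.34 (SE, adjusted p = 1.34e-06) and SOCS3, an inhibitor of cytokine receptors, one of −1.26 ± 0.35 (SE, adjusted p = 0.0434). JAK2, the kinase of the interferon gamma receptor, had the higher level in HGA, with a log2FC of 2.55 ± 0.34 (SE, adjusted p = 1.42e-05), as did SOCS1, an inhibitor of JAK kinases, with 2.21 ± 0.57 (SE, adjusted p = 0.0255). The genes of this group thus moved both ways.

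Upstream of the interferons, 1 of 10 sensing genes tested was lower in HGA, namely MAVS, the adaptor of RIG-I and MDA5 (log2FC −1.19 ± 0.19 SE, adjusted p = 0.000215), and 1 was higher, the endosomal sensor TLR3 (log2FC 1.34 ± 0.35 SE, adjusted p = 0.0275). Beside 12.5% lower and 12.6% higher over all genes tested, 7 of 8 targets of interferon gamma tested were lower in HGA and none was higher. They were the chemokine CXCL10 (log2FC −3.41 ± 0.79 SE), the immunoproteasome subunits PSMB9 (−3.00 ± 0.39) and PSMB8 (−2.79 ± 0.39), the peptide transporters TAP1 (−2.80 ± 0.41) and TAP2 (−1.37 ± 0.23), the class II regulator CIITA (−2.27 ± 0.61) and the tryptophanyl-tRNA synthetase WARS (−1.08 ± 0.16). Their adjusted p ranged up to 0.0367, the value of CIITA.

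**Figure D4:**
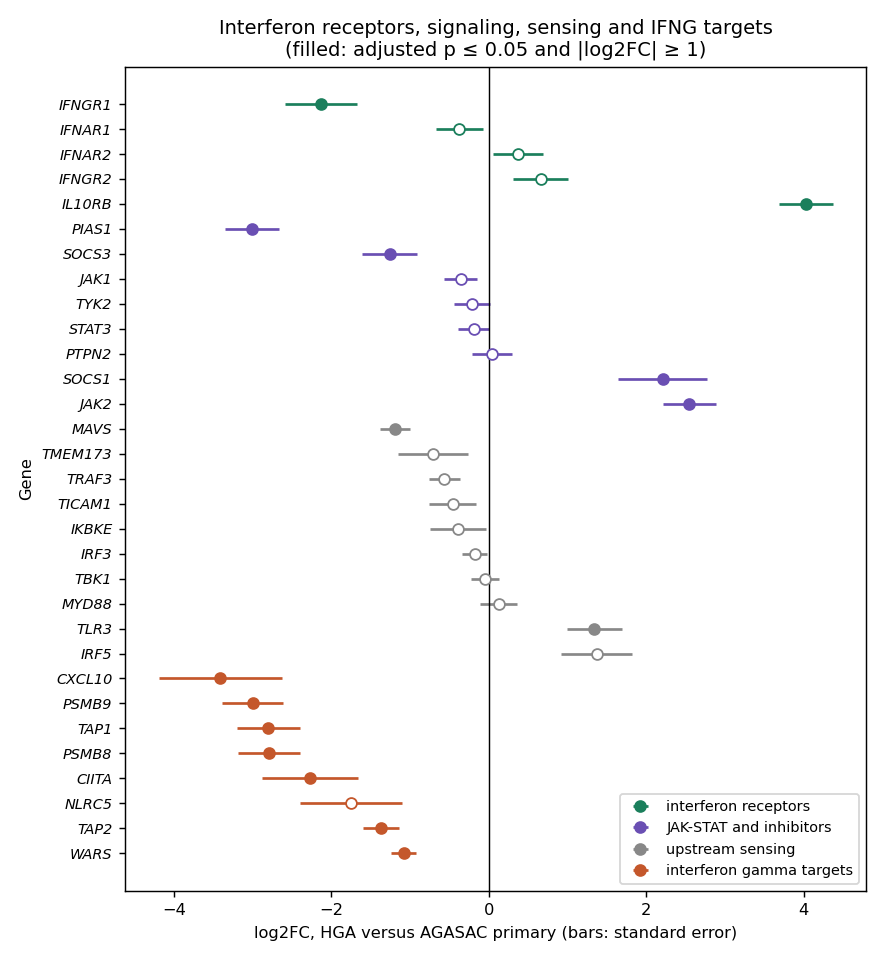
log2FC with standard error of receptor, signaling, sensing and interferon gamma target genes, HGA versus primary AGASAC (x axis, log2 scale), with filled points for genes called. The 8 interferon gamma targets all lie below 0, with 7 called, and the receptors and signaling genes lie on both sides, from −3.01 for PIAS1 to 4.03 for IL10RB.

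Few markers of immune cells could be tested or were called. Of 6 T cell markers, only CD2 had enough counts to be tested (log2FC −1.53 ± 0.59, adjusted p = 0.343). Their summed level was 0.615 to 45.7 CPM in HGA and 12.2 to 105 CPM in primary AGASAC, with CD8A at 0 in 6 of the 10 HGA and 3 of the 11 primary AGASAC and CD3G at 0 in 5 and none. CD8A also went the other way, since 2 HGA lay above every primary AGASAC. It reached 37.1 CPM in HGA 2, against at most 8.74 CPM in primary AGASAC, and made up most of the 45.7 CPM of that tumor. Of 7 macrophage markers, 1 was called lower in HGA, and their sum was 80.2 to 275 CPM in HGA and 136 to 398 CPM in primary AGASAC. The sum of 5 plasma cell markers was 5.53 to 106 and 30.6 to 200 CPM, that of 6 B cell markers 6.15 to 65.7 and 13.1 to 41.3 CPM, that of 5 neutrophil markers 4.69 to 100 and 1.68 to 38.9 CPM, and that of 4 plasmacytoid dendritic cell markers 31 to 178 and 40.7 to 120 CPM. Endothelial markers were the higher in HGA, with 2 of 5 called and sums of 196 to 547 against 50.6 to 231 CPM. The part of these cells in the lower level of interferon-stimulated genes in HGA was not tested, and it cannot be told apart from the difference in tumor type.

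RNA was extracted in several batches, which the study's supplement gives, and 3 of them held at least 2 samples of both tumors. Batch 5 held 3 HGA and 3 primary AGASAC, batch 6 held 3 and 2, and batch 8 held 2 and 3. Within them the median log2FC of the genes of the list tested was −1.72, −1.24 and −1.51. Over all genes tested it was −0.0662, −0.0146 and −0.0486. The 17 called genes all stayed below 0, with medians of −2.46, −1.91 and −2.97. They had been called on tumors that include these, so their sign here is not a separate test. At these sample numbers 1, 1 and 2 genes of the list were called, beside 2.12%, 4.84% and 2.46% of all genes tested. With the batch as a term in the fit over all 21 tumors, 17 genes were called lower in HGA and 1, DTX3L, was called higher, while RSAD2 lost its call and OASL gained one.

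The matched comparison set each of the 4 metastases beside the primary tumor of its dog. The RNA of both samples was extracted in the same batch in dogs 1 to 3, and in batches 5 (metastasis) and 6 (primary tumor) in dog 4. None of the 41 genes tested was called, and neither was any of all 12629 genes tested (0%). At an unadjusted p under 0.05, 1 gene, IRF8, was higher in the metastases (2.44% of the list, beside 0.697% of all genes), and none was lower, beside 0.451%. DESeq2 called none of the list. No gene of the list had every metastasis above every matched primary tumor, beside 0.673% of all genes, and none had every metastasis below them, beside 0.467%. The log2FC of the 41 genes lay between −0.278 and 1.25 with a median of 0.13, beside 0.00194 over all genes, and 29 were above 0. Their standard errors ran from 0.178 to 1.32 with a median of 0.428, and they hold the spread between the dogs. With the dog as a replicate block, the median standard error was 0.257 and still none of the 41 genes was called. In that fit 4 genes, IRF8, LGALS9, ISG15 and SAMD9L, were higher at an unadjusted p under 0.05 (9.76%, beside 2.18% of all genes tested) and none was lower, beside 1.71%.

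IRF8 was at 25.9, 24.7, 12.2 and 16 CPM in the metastases of dogs 1 to 4 and at 13.3, 9.80, 5.93 and 4.17 CPM in their primary tumors. It was higher in the metastasis in 4 of 4 dogs, with a log2FC of 1.25 ± 0.41 (SE), an unadjusted p of 0.0143 and an adjusted p of 1. With the dog as a block the log2FC was 1.3 ± 0.27 (SE, unadjusted p = 0.00182, adjusted p = 1). It was singled out after its value was seen. Lymphocyte markers moved with it. The summed T cell markers were at 39.9, 46.4, 59.5 and 43.8 CPM in the metastases of dogs 1 to 4 and at 22.6, 18.9, 19.6 and 39.5 CPM in their primary tumors, and the summed B cell markers at 41.8, 21.2, 27 and 29.1 CPM and at 41.3, 18, 13.6 and 14.7 CPM. Both sums were higher in the metastasis in 4 of 4 dogs, and for CD3E, CD3G and CD8A every metastasis lay above every matched primary tumor, although no marker was called. The summed lymph node stroma markers were at 3.57, 10.9, 17.7 and 17.2 CPM in the metastases and at 4.22, 10.1, 2.37 and 12.2 CPM in the primary tumors, higher in 3 of 4 dogs. The same sum was 12.9 to 141 CPM in HGA, so these markers are not particular to lymph node here. The part of lymphocytes and stromal cells in the level of IRF8 and of the other genes was not tested.

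Of the other genes of the list, the sign of the difference was shared by the 4 dogs in some and not in others. ISG15 was at 37, 88.6, 4.18 and 27.2 CPM in the metastases of dogs 1 to 4 and at 30.7, 48.4, 2.96 and 15.3 CPM in their primary tumors, with a log2FC of 0.71 ± 0.89 (SE, adjusted p = 1). It was higher in the metastasis in 4 of 4 dogs, and with the dog as a block its log2FC was 0.63 ± 0.20 (SE, unadjusted p = 0.0156, adjusted p = 1). Dog 2 was the highest and dog 3 the lowest at both sites. MX1 was at 71.4, 162, 24.4 and 42.2 CPM in the metastases and at 59.1, 154, 11.9 and 51.7 CPM in the primary tumors, with a log2FC of 0.13 ± 0.75. RSAD2 was at 120, 321, 3.54 and 47.3 CPM in the metastases and at 159, 239, 3.85 and 11.9 CPM in the primary tumors, with a log2FC of 0.27 ± 1.32. The dogs again kept their extremes, dog 2 the highest and dog 3 the lowest at both sites. OAS1, IRF1 and STAT2 had log2FC of −0.01 ± 0.69, 0.15 ± 0.44 and 0.05 ± 0.23 and were likewise not called.

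Across the 46 genes, the metastasis was the higher of the pair in 30 genes in dog 1, 30 in dog 2, 32 in dog 3 and 24 in dog 4, and the median log2 ratio of the pair was 0.189, 0.219, 0.297 and 0.00855. All 4 metastases were higher in 8 genes (ISG15, USP18, ISG20, IFI35, SAMD9L, IRF8, DTX3L and LGALS9) and all 4 were lower in 1 gene, RTP4. Shares over all genes are not given for these counts, so they describe the pairs and show no shift particular to the list. The mean of log2(CPM + 1) over the list went from 4.82 to 5.12 in dog 2, from 4.51 to 4.70 in dog 1, from 4.40 to 4.46 in dog 4 and from 3.59 to 3.85 in dog 3. The order of the dogs was the same at both sites, and the distance between dogs 2 and 3 was larger than that between the sites of any dog.

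**Figure D5:**
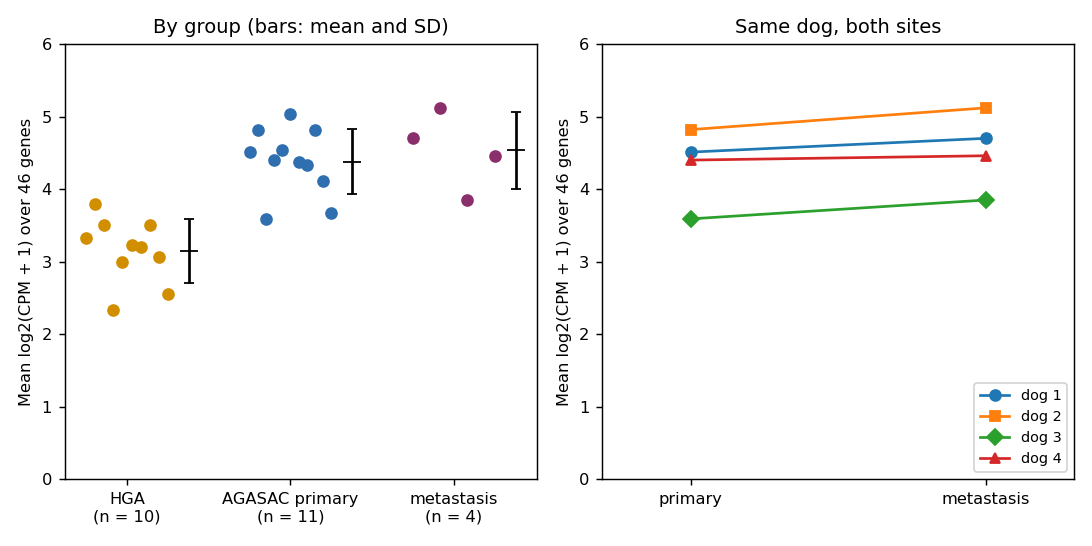
Mean log2(CPM + 1) over the 46 genes in each sample by group with mean and SD (left), and in primary tumor and metastasis of dogs 1 to 4 joined by lines (right). HGA lie between 2.34 and 3.79, and the lines of the 4 dogs do not cross, with dog 2 on top (4.82 and 5.12) and dog 3 at the bottom (3.59 and 3.85).

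The dog was also seen gene by gene. Dog 3 had the lowest of the 4 primary tumors and the lowest of the 4 metastases in 20 of the 41 genes tested (48.8%), beside 9.64% of all genes tested. Dog 2 had the highest at both sites in 17 (41.5%), beside 9.49%. Dogs 2 and 3 were picked by their means over the same list, so the distance from all genes follows in part from that choice. The same dog, whichever it was, had the lowest value at both sites in 27 genes (65.9%), beside 42.5% of all genes, and the highest in 24 (58.5%), beside 46.2%. Genes of the list share their regulators and are not independent of each other, so these counts describe 4 dogs.

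Primary AGASAC also differed among themselves. The SD of log2(CPM + 1) over the 11 primary tumors had a median of 0.772 over the 39 genes tested, beside 0.526 over all genes tested, and over the 10 HGA 0.955 beside 0.643. AGASAC primary 9 held the highest value of all 25 samples in 11 of the 46 genes and metastasis 2 in 8. AGASAC primary 3 and AGASAC primary 11 exceeded their group's median in 5 of the 46 genes each and were the lowest primary tumor in 13 each. Among HGA, HGA 2 was the highest in 16 genes, and HGA 4 was the lowest in 18, with no read in 13 of the 46 genes. HGA 4 was also the library with the fewest counts and the fewest genes detected (14041), and the part of its depth in this was not tested. Shares over all genes are not given for these counts of highest and lowest values. Without HGA 4 and HGA 10, the HGA with the lowest means, 16 genes were called lower in HGA and 2, DTX3L and PARP9, were called higher, in a fit added after the data were seen.

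The metastases were also compared with HGA, which shares the HGA samples with the first comparison. Of the 42 genes tested, 13 (31%) were higher in the metastases, beside 7.69% of all 13195 genes tested, and none was lower, beside 8.4%. At an unadjusted p under 0.05, 23 (54.8%, beside 19.2% of all genes) were higher and 1 (2.38%, beside 22%), EIF2AK2, was lower. In 10 genes (23.8%) every metastasis lay above every HGA, beside 8.72% of all genes, and in none below, beside 7.38%. These were IFIT2, IFIT3, MX1, MX2, IFI44, UBE2L6, STAT2, IRF1, IRF8 and SP100. The median log2FC (metastasis versus HGA) was 1.55, beside −0.018 over all genes. With library size alone the median of all genes was 0.262, the share of calls over all genes that were higher in the metastases went from 47.8% to 63.7%, and 16 genes of the list were called higher. DESeq2 called 17 higher and 1 lower.

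IFIT3 was at 16.3 to 63.4 CPM in the metastases and at most 6.33 CPM in HGA, with a log2FC of 4.12 ± 0.80 (SE, adjusted p = 0.00922). IFIT2 had a log2FC of 4.02 ± 0.67 (SE, adjusted p = 0.00258), ISG15 of 3.25 ± 0.58 (SE, adjusted p = 0.00423) and MX1 of 3.18 ± 0.45 (SE, adjusted p = 0.00056). All 4 of these antiviral genes were called, and in ISG15 metastasis 3 (4.18 CPM) lay within the range of HGA. RTP4 (3.06 ± 0.74), MX2 (2.93 ± 0.58), IFI44 (2.78 ± 0.50), IFI44L (2.72 ± 0.65) and SP100 (2.48 ± 0.48) followed, with adjusted p up to 0.0443, the value of RTP4. Among the regulators, IRF1 had a log2FC of 2.40 ± 0.32 (SE, adjusted p = 0.000293), the sensor gene DDX58 of 2.06 ± 0.39 (SE, adjusted p = 0.00655) and STAT2 of 1.63 ± 0.18 (SE, adjusted p = 4.74e-05), and the conjugating enzyme UBE2L6 had 1.34 ± 0.25 (SE, adjusted p = 0.00605).

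RSAD2 had the highest log2FC of the list in this comparison, 4.18 ± 1.16, but was not called (adjusted p = 0.111). It ran from 3.54 CPM in metastasis 3 to 321 CPM in metastasis 2, and HGA 2 lay at 54.7 CPM. Without HGA 2 it was called, with a log2FC of 6.48 (adjusted p = 0.000809). OAS1 was at 22.4, 42.7, 6.75 and 13.7 CPM in the metastases and had a log2FC of 0.10 ± 0.51 (adjusted p = 1), within the spread of HGA. The summed T cell markers were at 39.9 to 59.5 CPM in the metastases against 0.615 to 45.7 CPM in HGA, with CD3G called higher, and the summed macrophage markers at 126 to 361 against 80.2 to 275 CPM with none called. Their part in this comparison was not tested. The count of genes called was 8 without metastasis 2, the highest of the 4, and 10 without metastasis 1 or metastasis 4. Over all genes tested the share called also fell, from 16.1% to 11.9% without metastasis 2, 11.4% without metastasis 1 and 11.9% without metastasis 4. Over the 14 fits with 1 sample removed, the call of RTP4 was lost in 11 and that of IFI44L in 10, 6 genes lost theirs in 1 or 2 fits, and IFIT2, MX1, IFI44, STAT2 and IRF1 were called in every fit.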

How the data were processed

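The authors trimmed the reads with cutadapt, aligned them with STAR to CanFam3.1 and counted them with featureCounts in 2 rounds, the second on an annotation extended by 2 kb at the 3′ ends, with multi-mapped reads split evenly. Tool versions were not given in the sources used here. The deposited table of 24532 genes holds the counts themselves, as whole numbers of reads and not normalized. It also holds, as a signal, counts the authors divided by a size factor, and the log2 fold change with its standard error and the p-value of the authors' comparison, which were not used. 0 columns of per-sample values were left out.

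The tests were run with edgeR 4.0.16 under R 4.3.3 (filterByExpr with minimum count 10 and minimum total 15, TMM, quasi-likelihood test without covariate, Benjamini-Yekutieli adjustment over all genes tested). DESeq2 1.42.0 was an alternative. The script was tested on simulated data. Log2 means used a pseudocount of 1. Samples were grouped by their titles, and replicates are different dogs. By the titles, each metastasis was matched to 1 primary tumor, and all 4 pairs deviated together from the group means (r over genes from 0.428 to 0.73). No pair of samples of a group was a duplicate by a chi-square test (at least 12.2 per degree of freedom). Extraction batches are those of the study's supplement.

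The genes and all lists were chosen with earlier results of these data known. Values with errors were given for ISG15, MX1, OAS1, RSAD2, IRF1 and STAT2 and for the called genes with the largest log2FC, up to 12 per direction and comparison, and those of other genes were added after they were seen. No sequences of the genes were used here, and 1 item is not reported here. Depth limits what a count of 0 shows, and these limits cover counting error only.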

Additional observations from a re-analysis of the deposited data

Results flagged for a closer look

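The highest and the lowest value of each of the 46 genes, and of the mean over them, were tested against the rest of their group by Dixon's test on log2(CPM + 1), in the 10 HGA and in the 4 metastases. Of these 94 sets of values 10 passed the 95% limit, where chance gives about 5% of them, or 4.7. In HGA 4, PARP14 was at 0 CPM (next HGA 2.97) and LGALS9 at 0.615 CPM (next 5.71), the latter from 1 read. In HGA 10, HERC6 was at 0.43 CPM (next 4.11) and EIF2AK2 at 0 CPM (next 4.07). These are the HGA with the lowest mean over the list. RSAD2 was at 54.7 CPM in HGA 2 (next 5.34), from 121 reads, IFI6 at 13.1 CPM in HGA 3 (next 2.43), from 23 reads, and OAS3 at 3.08 CPM in HGA 1 (next 1.08), from 17 reads. Among the metastases, XAF1 was at 4.47 CPM in metastasis 4 (next 1.3), from 14 reads, and ZBP1 at 0.958 CPM in metastasis 4, from 3 reads, with 0 in the other metastases. Beside these zeros any value above 0 would have passed, so the flag of ZBP1 is no test result and the 5% does not cover it. EPSTI1 was at 7.72 CPM in metastasis 3, below the next at 16.7 CPM.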

How the results depend on the processing

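HGA versus primary AGASAC. Of 38 alternatives, 34 kept the count of genes called in either direction within 1.5 times of 17, and it was 15 to 18 when each tumor was left out. Of the 17 genes, 15 were called in all 21 of those fits, the exceptions being BST2 and RSAD2. Within extraction batches 5, 6 and 8 it was 1, 1 and 2, and within the 9 HGA and 3 primary AGASAC of file name series A it was 11, with fewer samples in each. With a minimum count of 30, IFIT2, RTP4 and ISG15 were not tested. With Benjamini-Hochberg adjustment 23 genes were called, beside 30.9% of all genes tested, and DTX3L and EIF2AK2 among them were higher in HGA. DTX3L was also called higher in HGA in the fit over all 25 samples. The replicate numbers of HGA and primary AGASAC come from different dogs and did not pair the samples (correlations −0.046 to 0.0446). With the replicate block, in a fit without AGASAC primary 11, 16 genes were called.

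Metastases. Against the matched primary tumors no gene of the list was called under any of 17 alternatives, the replicate block by dog included. The log2FC of OAS1 changed sign with library size alone (0.0315), with a minimum count of 30 (0.0102) and with the replicate block (0.00836). When each sample was left out it ran from −0.621 to 0.438 in OAS1, −0.109 to 1.29 in ISG15, −0.605 to 0.899 in MX1, −0.88 to 1.12 in RSAD2, −0.103 to 0.597 in IRF1 and −0.0491 to 0.214 in STAT2, where removing a sample leaves a dog without its pair. The sign of each of these 6 in this unpaired fit thus changed with the sample left out. Against HGA, 23 genes were called with Benjamini-Hochberg adjustment, beside 26.8% of all genes tested, and EIF2AK2 among them was lower in the metastases. When each sample was left out, 8 to 15 genes of the list were called, beside 11.4% to 19.5% of all genes tested, with 8 without metastasis 2. With the replicate block 0 were called, in a fit that held the 4 metastases and only 4 of the 10 HGA. Over all genes tested 5.33% were called in that fit, against 16.1% in the main fit. The replicate numbers do not pair these samples (correlations −0.0955 to 0.0553), and the part of the block and of the fewer samples was not tested. The log2FC of OAS1 was −0.116 with that block and ran from −0.494 (without metastasis 2) to 0.396 when each sample was left out.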
